A study of Mus musculus with 23 samples.

Results

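Solute carriers are membrane proteins that move nutrients, ions, metals and metabolites into and out of cells and organelles. Their genes carry symbols that begin with Slc and a family number. All genes with such a symbol were taken, provided that a probe carried that symbol and no other, and this gave 155 of the 8683 genes measured, from 185 probes. Another 7 probes that carry an Slc symbol beside a second gene were left out. For 23 of the 155 genes, 2 or more probes were averaged. Members were grouped by the substrate that their family is known to carry, and the rule for choosing them uses no measured value.

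RNA was compared along a protocol that turns A404 cells, a single clone derived from mouse P19 embryonal carcinoma, towards smooth muscle. The clone is known to carry a gene for puromycin resistance that the Acta2 promoter drives (Acta2 encodes smooth muscle alpha-actin), so that puromycin spares cells in which that promoter is active. Control cells were undifferentiated and were taken at time 0 from plates near confluence (6 arrays). RA48 and RA96 cells were started from sparser plates of about 30% confluence and had 48 h (5 arrays) or 96 h (6 arrays) of 1 µmol/L all-trans retinoic acid. Treatment and plating density therefore cannot be told apart in comparisons with Control. Puromycin cells (6 arrays) were kept for 48 h in puromycin once 96 h of retinoic acid were over, and the labels give neither their density nor whether retinoic acid was kept on. RNA of 5 to 6 plates made up each replicate. Nothing in the labels says that replicates came from separate cultures, and if they did not, the p-values measure technical variation alone.

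Transport at the plasma membrane sets which amino acids, sugars and metals a cell can take up, and carriers of the mitochondrial inner membrane connect the cytosol with respiration and fatty acid oxidation. Retinoic acid acts through nuclear receptors that bind DNA and switch on differentiation genes. Proliferating embryonal cells depend on a steady supply of amino acids and nucleosides, and contractile cells on ion gradients.

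Every value below is a log2 ratio of red-labelled cell RNA over green-labelled RNA pooled from whole mouse embryos of day 17.5, hybridized to 2-colour Agilent arrays with no dye swap. A level of 0 means as much signal as in the embryo pool, and a ratio cannot show whether a transcript is absent. Deposited values were taken to be log10 ratios, although their base and any centring are not stated. Fold changes depend on this choice, while p-values are the same for either base. Direction was read from the dyes. A change is the difference of 2 group means with its standard error (SE), and a gene is called where limma's adjusted p is under 0.05 over all 17863 rows tested. Levels are given as lowest, median and highest array, and for RA48 as the values of replicates 1 to 5. Over the 155 genes, group means ran from -3.12 to 3.55, and the median SD between arrays of a group was 0.20 to 0.23, close to the 0.20 to 0.22 of all genes. Levels lay below the embryo pool on every array for 69 members in Control and 77 in Puromycin (44.5% and 49.7%, against 36.8% and 36.5% of all genes).

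The F test over the 4 groups called 88 of the 155 members (56.8%), where it called 60.8% of all genes. After 48 h of retinoic acid 20 members rose and 24 fell, beside 18.0% and 16.4% of all genes (34.4% in both directions), and the median change was -0.05 for members and -0.02 for all genes. From 48 to 96 h 13 rose and 19 fell, beside 10.8% and 11.6% of all genes (22.4%). At 96 h against Control 30 rose and 46 fell, beside 23.9% and 27.6% of all genes (51.5%). From 96 h to the end of puromycin 5 rose and 2 fell, beside 4.70% and 3.12% (7.82%). At the end against Control 30 rose and 53 fell, beside 24.6% and 28.6% (53.2%), with a median change of -0.13 for members and -0.06 for all genes. Solute carrier genes as a class were thus called at shares close to or below those of genes in general in these 5 comparisons, and the results lie in single members. Comparisons that share arrays, such as both against Control, are not independent of each other. At the end the share called, among substrate groups of 8 or more members, ran from 25.0% (neurotransmitter, choline and osmolyte carriers) and 30.0% (vitamin carriers) to 69.6% (Slc25 family) and 70.6% (metal carriers), beside 53.2% of all genes.

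**Figure D1:**
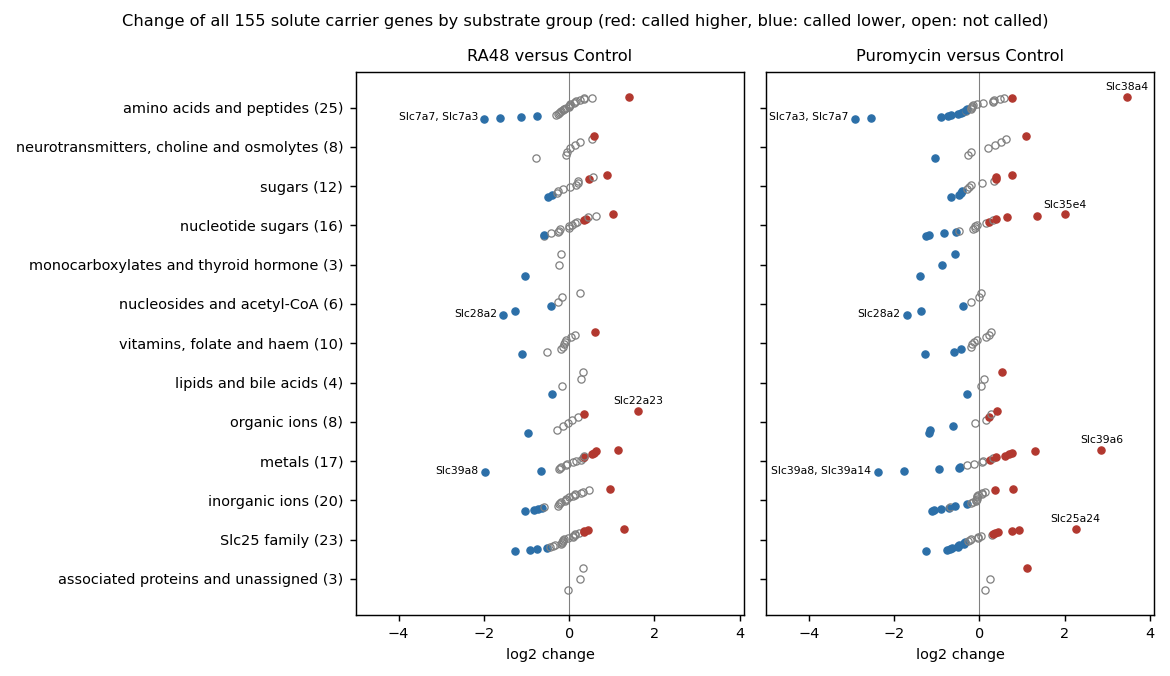
Log2 change of each of the 155 solute carrier genes (horizontal axis, log2) after 48 h of retinoic acid and at the end of puromycin, both against Control, with a row for each substrate group and its number of genes. Filled points were called higher (red) or lower (blue), open points were not called, and names mark called changes larger than 1.5; Slc38a4 (3.46) and Slc39a6 (2.86) lie farthest to the right at the end, and Slc7a3 (-2.92) farthest to the left.

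The arrays of every group fell into 2 sets with different offsets, seen in the leading principal component of the values after each group mean was taken out, with 48.9% of the variance within groups. A first set of 11 arrays (replicates 1 to 3 of Control, RA48 and Puromycin, replicates 1 and 3 of RA96) stood apart from the other 12. No label names these sets. With the set as a block the comparisons called 74, 54, 101, 22 and 104 members in the order above, where they called 44, 32, 76, 7 and 83 without it, beside 49.4%, 36.0%, 64.5%, 17.5% and 67.3% of all genes. No call was lost, but these p-values are optimistic because the sets come from the same data. Within each set alone 43 of the 44, 32 of the 32, 76 of the 76, 7 of the 7 and 82 of the 83 called changes kept their direction. When group and set formed a random block, far fewer members were called, 16, 7, 30, 0 and 34, beside 12.5%, 2.29%, 21.5%, 0.173% and 24.5% of all genes. That fit had no term for the set itself. The offset between sets therefore counted as noise in the group comparisons, which makes its calls conservative. The 16 at 48 h were Slc16a3, Slc20a1, Slc22a23, Slc23a2, Slc25a24, Slc25a40, Slc28a2, Slc29a1, Slc35f5, Slc38a4, Slc39a6, Slc39a8, Slc4a2, Slc6a15, Slc7a3 and Slc7a7. The 7 between 48 and 96 h were Slc20a1, Slc22a23, Slc25a22, Slc29a1, Slc38a4, Slc39a14 and Slc39a6. The 30 at 96 h against Control were Slc16a1, Slc16a3, Slc1a5, Slc22a23, Slc23a2, Slc25a15, Slc25a20, Slc25a24, Slc25a33, Slc25a40, Slc28a2, Slc29a1, Slc35a4, Slc35c2, Slc35e4, Slc35f2, Slc35f5, Slc38a4, Slc39a1, Slc39a14, Slc39a6, Slc39a8, Slc47a1, Slc4a2, Slc50a1, Slc66a2, Slc6a15, Slc7a3, Slc7a6 and Slc7a7. The 34 at the end were Slc12a1, Slc16a1, Slc16a3, Slc1a5, Slc23a2, Slc25a15, Slc25a20, Slc25a24, Slc25a33, Slc25a39, Slc28a2, Slc29a1, Slc30a4, Slc35b2, Slc35c2, Slc35e4, Slc35f2, Slc35f5, Slc38a4, Slc39a1, Slc39a10, Slc39a14, Slc39a6, Slc39a8, Slc39a9, Slc47a1, Slc4a2, Slc4a3, Slc50a1, Slc66a2, Slc7a3, Slc7a6, Slc7a7 and Slc9b2. Calls of members not named in these 4 lists were lost under the random block. Leaving out each array in turn ended 7 of the 44, 12 of the 32, 12 of the 76, 3 of the 7 and 13 of the 83 calls at least once, and such calls are marked where they appear.

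The labels were checked on marker genes. Of 4 measured genes of undifferentiated cells 3 fell in the first 48 h, among them Utf1 (-3.48) and Sox2 (-2.23), while Zfp42 was at 1.19 ± 0.59 (SD, n = 6) in Control and 1.10 ± 0.25 at the end. Acta2 rose by 4.56 and then by 2.21, and 4 of 6 measured smooth muscle genes had risen by 48 h. Markers of other cell types moved too: by 48 h 4 of 6 endoderm genes, 4 of 5 epithelial genes (Krt8 by 5.05, while Epcam fell by 2.00), 3 of 3 endothelial genes and 1 of 8 neuronal genes (Gap43 by 2.58) had risen, 2 neuronal genes had fallen (Nefl by 0.78 and Stmn2 by 0.24), and neither blood gene nor any of 7 cardiac and skeletal muscle genes was called. The summed ratio of the endoderm genes ran from 2.39 to 3.10 over Control arrays and from 5.14 to 7.78 over RA48 arrays, and that of the epithelial genes from 2.92 to 3.72 and from 11.5 to 13.3. Their part in the carrier results was not tested. By 48 h 18.0% of all genes had risen and 16.4% had fallen. In these bulk samples fewer cells of a type and less RNA per cell cannot be told apart.

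Promoters are shown for 2 members that rose and 2 that fell by large amounts and that have a single start in RefSeq's promoter table (GRCm38.p6). The RefSeq genes Slc16a3 and Slc28a2 begin further upstream, at 120948484 and 122426357, so those windows belong to a start inside the gene. Each window is the 250 bases before the listed start, 5′ to 3′ on the coding strand, and capitals mark matches on either strand to the GC box GGGCGG or to CCAAT. Slc25a24 and Slc25a20, which encode mitochondrial carriers, rose:
Slc25a24, chr3:109122899-109123148, + strand: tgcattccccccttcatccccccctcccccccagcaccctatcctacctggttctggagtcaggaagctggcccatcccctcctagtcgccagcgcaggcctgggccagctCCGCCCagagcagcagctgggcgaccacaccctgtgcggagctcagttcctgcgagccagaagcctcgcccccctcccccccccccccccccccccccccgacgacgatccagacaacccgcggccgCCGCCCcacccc
Slc25a20, chr9:108661886-108662135, + strand: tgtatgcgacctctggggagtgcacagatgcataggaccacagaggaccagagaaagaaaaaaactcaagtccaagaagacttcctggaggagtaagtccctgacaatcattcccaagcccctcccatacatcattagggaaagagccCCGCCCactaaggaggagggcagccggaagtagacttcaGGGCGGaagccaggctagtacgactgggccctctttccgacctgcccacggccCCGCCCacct
Slc16a3, a lactate carrier gene, and Slc28a2, a nucleoside carrier gene, fell:
Slc16a3, chr11:120948817-120949066, + strand: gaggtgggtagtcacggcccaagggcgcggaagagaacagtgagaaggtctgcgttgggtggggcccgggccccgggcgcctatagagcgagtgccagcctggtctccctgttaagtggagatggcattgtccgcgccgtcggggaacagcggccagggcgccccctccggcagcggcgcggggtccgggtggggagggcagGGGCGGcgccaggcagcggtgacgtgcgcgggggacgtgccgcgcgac
Slc28a2, chr2:122426185-122426434, + strand: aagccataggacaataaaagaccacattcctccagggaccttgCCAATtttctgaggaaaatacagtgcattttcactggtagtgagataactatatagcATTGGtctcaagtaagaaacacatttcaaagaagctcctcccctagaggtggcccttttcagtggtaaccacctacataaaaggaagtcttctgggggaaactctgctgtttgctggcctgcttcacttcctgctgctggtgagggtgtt
Base composition differed among them, with 72.8% G or C for Slc25a24, 56.8% for Slc25a20, 73.6% for Slc16a3 and 45.2% for Slc28a2. GC boxes occurred in both promoters of the risers and in that of Slc16a3, while the Slc28a2 window held only CCAAT, once on each strand. AGGTCA, the motif that nuclear receptors bind, the octamer ATGCAAAT and the E box CACGTG had no match in these 4 windows. Among the 162 windows of the 121 members listed in RefSeq's promoter table here, 62.3% held a GC box (32.7% of all 32851 windows), 26.5% CCAAT (33.8%), 13.6% AGGTCA (14%), 10.5% CACGTG (6.02%) and 0.617% ATGCAAAT (1.6%). A match is only a run of letters, and no binding was measured here.

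Among the 25 amino acid and peptide carriers, the largest rise and the largest fall of all 155 members were found. In the first 48 h 1 rose and 4 fell, and at the end of the protocol 2 stood above Control and 10 below it (median change -0.19). Slc38a4, which encodes a sodium-coupled transporter of neutral amino acids, rose most of all 155 genes. Its levels were -0.21, 0.036 and 0.23 in Control, 1.44, 1.47, 1.61, 1.26 and 1.38 in RA48, 3.24, 3.50 and 3.84 in RA96 and 3.31, 3.47 and 3.75 in Puromycin. Control, RA48 and RA96 arrays did not overlap, and RA96 and Puromycin did. The rise was 1.40 (SE 0.11, adjusted p = 1.91e-09) by 48 h and a further 2.12 (SE 0.11, adjusted p = 4.33e-11) by 96 h, 11.5-fold in all, and both probes of the gene rose at each step.

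The 2 large falls were in carriers of cationic amino acids. Slc7a7 encodes a light chain that works with the heavy chain of Slc3a2 and exchanges cationic for neutral amino acids. Its Control arrays lay at 2.44, 2.60 and 3.08, far above RA48 (0.63, 0.67, 0.24, 0.85 and 1.11), RA96 (-0.44, -0.22 and 0.029) and Puromycin (-0.015, 0.18 and 0.25). Control overlapped no other group, and the fall was 3.97-fold by 48 h (log2 change -1.99, SE 0.14, adjusted p = 1.91e-10) and 5.84-fold at the end (log2 change -2.55, SE 0.13, adjusted p = 4.28e-13). Slc7a3, which encodes an arginine and lysine transporter, stood at 1.97, 2.76 and 3.62 in Control, 1.62, 1.38, 1.45, 0.65 and 0.63 in RA48, 0.49, 0.55 and 0.61 in RA96 and -0.67, -0.16 and 0.35 in Puromycin. No neighbouring pair of groups overlapped, although only the first step was called (log2 change -1.61, SE 0.26, adjusted p = 4.33e-05); the later steps came to -0.60 (adjusted p = 0.105) and -0.70 (adjusted p = 0.110). The end lay 7.55-fold below Control (log2 change -2.92, SE 0.25, adjusted p = 1.85e-09), by 3.83 in the first array set and 2.00 in the second. The shared heavy chain Slc3a2 was not called in any comparison and lay at -0.93 ± 0.59 in Control and -1.25 ± 0.12 at the end (SD, n = 6 each). Slc7a1, the widely expressed arginine transporter gene, was not called either (-0.14 at 48 h and -0.067 at the end).

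Slc1a5, which encodes a glutamine exchanger, fell later than these. Its levels were 0.64, 0.89 and 0.95 in Control and 0.68, 0.66, 0.66, 0.45 and 0.45 in RA48, a difference of -0.26 (adjusted p = 0.0990), and then -0.31, -0.14 and 0.15 in RA96 and -0.38, -0.026 and 0.13 in Puromycin. RA48 and RA96 did not overlap (log2 change -0.68, SE 0.11, adjusted p = 0.000218), and the end lay 1.88-fold below Control. Slc38a5, a relative of Slc38a4 that carries glutamine, also fell between 48 and 96 h (log2 change -1.24, SE 0.19, adjusted p = 0.000117) from -0.34, -0.29, -0.36, -0.47 and -0.61 to -2.05, -1.62 and -1.46. Slc6a15, which encodes a transporter of branched-chain amino acids, fell in the first 48 h from 1.64, 1.89 and 2.14 to 0.56, 0.61, 0.62, 0.79 and 1.28 (log2 change -1.13, SE 0.16, adjusted p = 6.81e-06) and ended 0.74 below Control. Among the others Slc16a10, Slc15a4, Slc7a8, Slc38a1 and Slc38a9 lay 0.30 to 0.50 below Control at the end, and the calls of Slc38a1 and Slc38a9 were lost without any of 4 and 3 single arrays (adjusted p up to 0.0713 and 0.0770). The 3 probes of Slc38a1 ran from -0.99 to 0.20, with 2 called lower, and 1 of the 2 probes of Slc38a9 was called (-0.72, the other -0.15). Slc38a2 was not called at the end (0.58 (adjusted p = 0.0636)), and its 2 probes disagreed, with -0.20 and 1.36. Slc7a6, the second called gene above Control (0.76 (adjusted p = 0.000595)), rested on 4 probes that ran from -0.38 to 2.74, and 2 of them were called higher. Of 10 measured genes of the amino acid response, which cells switch on when amino acids run short, none rose and 4 fell in the first 48 h, namely Trib3 (-1.03), Psat1 (-0.92), Psph (-0.56) and Phgdh (-0.39). At the end 6 of them lay below Control and 1, Cebpb, above. The shares of all genes were 18.0% up and 16.4% down by 48 h, and 24.6% and 28.6% at the end.

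**Figure D2:**
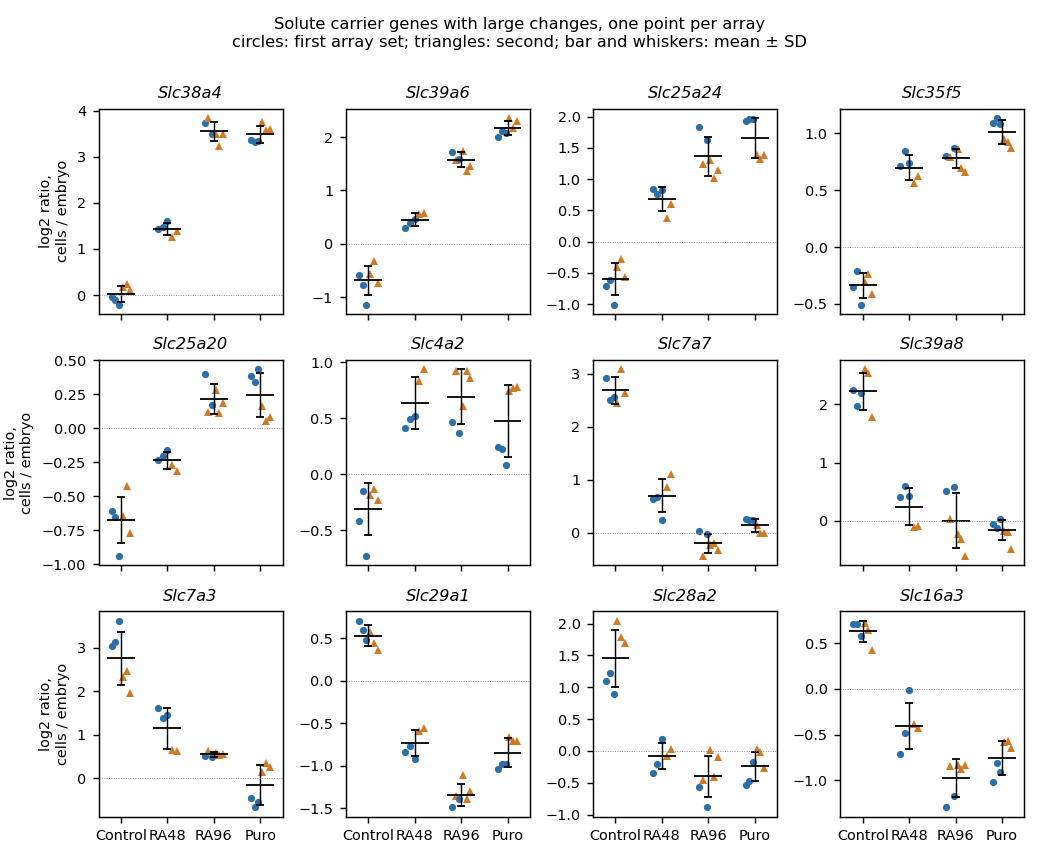
Log2 ratio of cells over the embryo pool (vertical axes) for 12 solute carrier genes in Control, RA48, RA96 and Puromycin arrays, a point per array, with circles for the first array set, triangles for the second, and a bar with whiskers for mean ± SD (n = 6, 5, 6 and 6). Slc38a4, Slc39a6 and Slc25a24 climb from group means of 0.028, -0.69 and -0.60 in Control to 3.49, 2.17 and 1.66 in Puromycin, while Slc7a7 and Slc39a8 lose most of their signal by 48 h.

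Of 8 carriers of neurotransmitters, choline and osmolytes, 1 rose by 48 h (12.5%, beside 34.4% of all genes called). At the end 1 stood above Control and 1 below (25.0%, beside 53.2%), with a median change of 0.28. Slc44a1, which encodes a choline transporter, rose between 48 and 96 h (log2 change 0.67, SE 0.22, adjusted p = 0.0354) from 0.27, 0.29, -0.16, 0.093 and -0.64 to 0.41, 0.71 and 0.81. Those groups did not overlap, the call was lost without any of 6 single arrays (adjusted p up to 0.0929), and the gene ended 2.14-fold above Control, a call that was lost with the random block (adjusted p = 0.153). Its first-step difference of 0.54 was not called (adjusted p = 0.0786). Slc18a1, which encodes a vesicular monoamine transporter, was lower at the end than in Control (log2 change -1.03, SE 0.29, adjusted p = 0.00576). That fall belonged to the second array set, by 1.84 against 0.21 in the first, and the Control arrays ranged from -0.18 to 2.35. Slc6a6, the taurine transporter gene, is described with the genes that stood out at 48 h. The creatine carrier gene Slc6a8 (0.63 (adjusted p = 0.0518)) and the inositol carrier gene Slc5a3 (0.51 (adjusted p = 0.0569)) were not called.

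By 48 h 2 of 12 sugar carriers rose and 2 fell (33.3% called, beside 34.4% of all genes). At the end 3 stood above Control and 4 below (58.3%, beside 53.2%), with a median change of -0.22. Slc50a1, whose protein exports sugars, rose from -1.02, -0.48 and -0.39 in Control to -0.38, -0.22, -0.31, 0.22 and 0.16 in RA48, and reached 0.0081, 0.17 and 0.33 in RA96 and 0.12, 0.19 and 0.33 in Puromycin. Control lay below every other array, with a first-step rise of 0.46 (adjusted p = 0.00562) and 1.70-fold at the end (adjusted p = 9.75e-06). Slc2a1, the main glucose uptake gene of dividing cells, was called only at 96 h against Control (log2 change 0.61, SE 0.22, adjusted p = 0.0273), and leaving out any of 7 single arrays ended that call (adjusted p up to 0.0720). Its Control arrays ran from -0.78 to 0.10 and its RA96 arrays from -0.41 to 0.79, so the groups overlapped. Within each array set, however, RA48 already lay above Control. The first set gave -0.78, -0.77 and -0.47 in Control and 0.13, -0.071 and 0.075 in RA48. The second gave 0.10, 0.096 and 0.064 in Control and 0.62 and 0.64 in RA48. Slc2a5, the fructose carrier gene, fell in the first 48 h (-0.50 (adjusted p = 0.00539)) and Slc5a11, an inositol and glucose carrier gene, did so as well (-0.41 (adjusted p = 0.0168)), though not without RA48 replicate 2 or 4 (adjusted p up to 0.0524). Slc2a8 ended 0.66 below Control and Slc37a4, which carries glucose-6-phosphate into the endoplasmic reticulum, 0.39 above it. Among 8 measured genes of glucose use none rose and 6 fell by 48 h, including Pfkm (-0.86), Pdk1 (-0.77), Ldha (-0.75) and Pkm (-0.71). Of all genes 18.0% rose and 16.4% fell at that step.

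All 3 monocarboxylate carriers with a probe of their own were called below Control at the end, beside 28.6% of all genes. Slc16a6, also of family 16, lay on 2 probes shared with a second gene and was left out. Slc16a3 encodes the carrier through which glycolytic cells release lactate. It lay at 0.42, 0.68 and 0.72 in Control, -0.71, -0.48, -0.012, -0.38 and -0.43 in RA48, -1.30, -0.86 and -0.83 in RA96 and -1.01, -0.73 and -0.57 in Puromycin. Control and RA48 did not overlap, nor did RA48 and RA96. The gene fell by 1.03 (SE 0.12, adjusted p = 5.94e-07) and then by 0.57 (SE 0.12, adjusted p = 0.00210), and the end lay 2.61-fold below Control. Slc16a1, the lactate and pyruvate carrier gene of most cells, fell by 0.52 by 96 h (adjusted p = 0.0109) and by 0.88 at the end (adjusted p = 0.000109), but only 1 of its 2 probes was called each time. The probes gave opposite directions at 96 h (-1.31 and 0.27), and -1.57 and -0.19 at the end. Slc16a13 ended 0.56 below Control (adjusted p = 0.0174), a call lost without Puromycin replicate 3 (adjusted p = 0.0516). These carriers need a chaperone to reach the membrane; the gene of one, Emb, fell by 0.77 between 48 and 96 h (adjusted p = 0.00216), and that of the other, Bsg, was not called.

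The 6 carriers of nucleosides and acetyl-CoA gave 3 falls and no rise by 48 h and again at the end (median changes -0.35 and -0.30). The share called was 50.0% each time, beside 34.4% and 53.2% of all genes. Slc29a1 encodes the equilibrative carrier through which most cells take up nucleosides. Its levels were 0.37, 0.53 and 0.71 in Control, -0.83, -0.77, -0.92, -0.59 and -0.56 in RA48, -1.49, -1.37 and -1.11 in RA96 and -1.04, -0.84 and -0.66 in Puromycin. Neighbouring groups never overlapped, and RA96 was the lowest. The gene fell 2.40-fold by 48 h (log2 change -1.26, SE 0.095, adjusted p = 8.88e-10) and further by 96 h (log2 change -0.60, SE 0.095, adjusted p = 0.000139), and then rose after puromycin (log2 change 0.49, SE 0.091, adjusted p = 0.00164). Slc28a2 encodes a sodium-driven carrier that prefers purine nucleosides. Its Control arrays at 0.90, 1.46 and 2.04 stood clear of RA48 (-0.34, -0.20, 0.18, -0.079 and 0.024), RA96 (-0.89, -0.43 and 0.010) and Puromycin (-0.54, -0.22 and 0.024), and the 3 treated groups overlapped one another. That was a 2.91-fold fall by 48 h (log2 change -1.54, SE 0.19, adjusted p = 1.29e-06), with no later step called. Slc33a1, which carries acetyl-CoA into the endoplasmic reticulum, fell by 0.43 by 48 h (adjusted p = 0.000589). The second equilibrative carrier gene, Slc29a2, was called in no comparison, with 1.95 ± 0.36 in Control and 1.75 ± 0.49 at the end. Slc28a3 fell between 48 and 96 h (-0.68 (adjusted p = 0.0205)), on 2 probes of which 1 was called, and not without RA48 replicate 1, 2 or 3 (adjusted p up to 0.0749).

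Slc35 carriers, some of which bring nucleotide sugars and related donors into the Golgi and endoplasmic reticulum, changed both ways. They were grouped by family number, and the substrate of each member was not checked. Of 16 measured, 3 rose and 1 fell by 48 h (25.0%, beside 34.4% of all genes). At the end 5 stood above Control and 4 below (56.2%, beside 53.2%), with a median change of -0.08. Slc35f5 lay at -0.51, -0.33 and -0.21 in Control and 0.72, 0.85, 0.74, 0.56 and 0.62 in RA48, followed by 0.66, 0.80 and 0.87 in RA96 and 0.87, 1.01 and 1.14 in Puromycin. All Control arrays were below all others, and the gene rose in the first 48 h (log2 change 1.03, SE 0.076, adjusted p = 5.83e-10) and ended 2.54-fold above Control (log2 change 1.34). Puromycin arrays lay above every RA48 array, and the steps of 0.081 and 0.23 after 48 h were not called (the second with adjusted p = 0.0711). Slc35e4 climbed over the whole course, from -1.30, -0.58 and 0.12 in Control through -0.0057, 0.018, -0.13, 0.27 and 0.13 in RA48 and 0.27, 0.68 and 1.35 in RA96 to 0.98, 1.42 and 1.90 in Puromycin. None of its 3 steps was called on its own (adjusted p = 0.0539, 0.0515 and 0.0759), while the end lay 4.04-fold above Control (log2 change 2.01, SE 0.23, adjusted p = 1.96e-07). Slc35b2, whose protein carries the sulfate donor for glycosaminoglycans, rose by 0.39 by 48 h (adjusted p = 0.000607) and by 0.37 after puromycin (adjusted p = 0.00417). Slc35f2 fell from 0.43, 0.60 and 1.26 in Control to -0.87, -0.55 and -0.37 in Puromycin, without overlap (log2 change -1.25, SE 0.14, adjusted p = 2.99e-07). Slc35c2 and Slc35g1 ended 0.55 and 1.18 below Control, the latter by 2.18 in the second array set and 0.17 in the first. Slc35e2 ended 0.82 below it, a call lost without any of 7 single arrays (adjusted p up to 0.105), and Slc35f6 and Slc35a2 0.39 and 0.24 above it.

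Metal carriers held both a strong riser and strong fallers. By 48 h 5 of 17 rose and 2 fell (41.2%, beside 34.4% of all genes). At the end 7 stood above Control and 5 below (70.6%, beside 53.2%), with a median change of 0.09. Slc39a6 encodes a zinc importer of the plasma membrane. It rose at each step, from -1.14, -0.67 and -0.32 in Control through 0.29, 0.38, 0.46, 0.55 and 0.58 in RA48 and 1.37, 1.58 and 1.73 in RA96 to 2.00, 2.14 and 2.36 in Puromycin. No 2 groups overlapped. The steps were 1.14 (SE 0.11, adjusted p = 7.08e-08), 1.12 (SE 0.11, adjusted p = 5.90e-07) and 0.60 (SE 0.11, adjusted p = 0.00149), 7.25-fold in all. Of the 155 members it was the only one called higher at all 3 steps.

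Its relatives Slc39a8 and Slc39a14, which carry zinc, manganese and iron, fell. Slc39a8 lay at 1.79, 2.23 and 2.60 in Control against 0.40, 0.59, 0.42, -0.11 and -0.094 in RA48, -0.60, -0.094 and 0.59 in RA96 and -0.48, -0.14 and 0.037 in Puromycin. Control stood alone, the other groups overlapped, and the fall was 3.95-fold by 48 h (log2 change -1.98, SE 0.20, adjusted p = 7.04e-08) and 5.23-fold at the end. The later steps of -0.24 and -0.16 were not called (adjusted p = 0.418 and 0.766). Slc39a14 fell in 2 steps, from 0.94, 1.19 and 1.44 in Control and 0.38, 0.44, 0.050, 0.75 and 0.99 in RA48 to -1.04, -0.80 and -0.47 in RA96 and -0.67, -0.57 and -0.44 in Puromycin. Control and RA48 shared a small overlap and RA48 and RA96 did not (log2 change -1.31, SE 0.13, adjusted p = 4.64e-07), after a first step of -0.67 (adjusted p = 0.000430), and the end lay 3.38-fold below Control. Slc39a9 rose by 0.63 by 48 h (adjusted p = 0.000179) and Slc39a1 by 0.34 and 0.39 in the first and second step (adjusted p = 0.0242 and 0.0155). The first of these Slc39a1 calls was lost without Control replicate 2 or 3 or RA48 replicate 4 or 5 (adjusted p up to 0.0719). Slc39a7, which releases zinc from the endoplasmic reticulum, Slc39a4 and Slc39a10 ended 0.94, 0.47 and 0.44 below Control, with 3 of the 4 probes of Slc39a10 called lower and Slc39a7 down by 1.64 in the first array set and 0.24 in the second.

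Most Slc30 proteins move zinc the other way, out of the cytosol into vesicles or out of the cell. The direction was not checked for each member. Slc30a4 stood at -0.48, -0.19 and -0.055 in Control, -0.058, 0.055, 0.096, 0.033 and 0.52 in RA48, -0.47, 0.73 and 0.91 in RA96 and 0.93, 1.12 and 1.23 in Puromycin. Puromycin arrays were above all others, and the gene ended 2.47-fold above Control (log2 change 1.30, SE 0.17, adjusted p = 1.47e-06). The step from RA96 to Puromycin was 0.56 and missed the threshold (adjusted p = 0.0551). Slc30a9 rose by 0.53 by 48 h (adjusted p = 0.000306), Slc30a7 stood 0.39 above Control at the end (adjusted p = 0.00457), and Slc30a2 and Slc30a3 were not called. Among 5 measured genes of zinc and copper handling, none rose and 1 fell by 48 h (18.0% and 16.4% of all genes). At the end 2 stood above Control (Ccs by 0.68 and Atp7a by 0.61) and none below (24.6% and 28.6% of all genes). Mt1, a metallothionein gene that zinc switches on, was the one that fell, by 1.44 at 48 h (adjusted p = 0.00184) and rose by 1.08 after puromycin (adjusted p = 0.0457). Slc40a1, the iron exporter gene, was not called in any comparison (-1.83 ± 0.25 in Control, -1.75 ± 0.29 at the end), nor was the copper importer gene Slc31a1. Of 9 measured genes of iron handling 1 rose and 4 fell by 48 h, beside 18.0% and 16.4% of all genes. The falls included the transferrin receptor gene Tfrc (-0.87) and the ferritin gene Fth1 (-0.65). Slc41a3, a magnesium carrier gene, rose by 0.59 by 48 h (adjusted p = 0.0382), a call lost without any of 6 single arrays (adjusted p up to 0.0984).

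**Figure D3:**
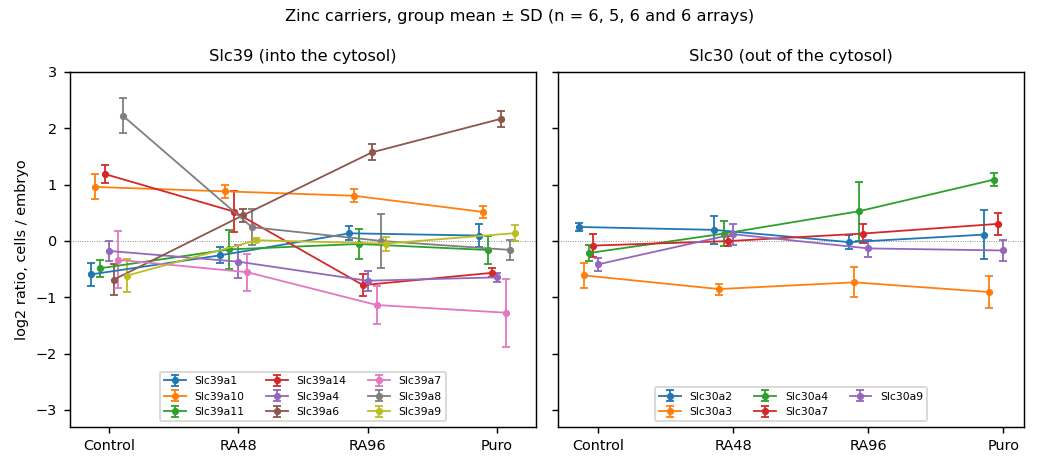
Group means ± SD of the log2 ratio of cells over the embryo pool (vertical axis) for 9 Slc39 genes, which carry zinc into the cytosol, and 5 Slc30 genes, of a family that mostly carries it out, in Control, RA48, RA96 and Puromycin (n = 6, 5, 6 and 6 arrays). Slc39a6 goes from -0.69 to 2.17 while Slc39a8 goes from 2.23 to -0.16 and Slc39a14 from 1.19 to -0.57.

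Among inorganic ion carriers 1 of 20 rose and 4 fell by 48 h (25.0%, beside 34.4% of all genes). At the end 2 stood above and 6 below Control (40.0%, beside 53.2%), with a median change of -0.07. Slc4a2 encodes an exchanger of chloride for bicarbonate that regulates cell pH. Its Control arrays at -0.73, -0.21 and -0.13 lay below RA48 (0.41, 0.49, 0.52, 0.83 and 0.94), RA96 (0.37, 0.74 and 0.93) and Puromycin (0.084, 0.50 and 0.78). Only Control stood apart, and the rise came in the first 48 h (1.93-fold, log2 change 0.95, SE 0.16, adjusted p = 6.55e-05). Its relative Slc4a3 fell by 0.63 in the same interval (adjusted p = 0.00503), and Slc9b2, a sodium and proton exchanger gene, by 0.73 (adjusted p = 0.00609). Slc20a2, 1 of the 2 phosphate uptake genes measured in family 20, fell by 1.03 by 48 h (adjusted p = 0.00319) from 0.49, 0.99 and 2.30 to 0.32, 0.19, 0.017, 0.054 and -0.34, and neither later step was called. The highest Control array stood well apart from the other 5, and the SD was 0.67.

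Slc12 genes encode cotransporters of chloride with sodium or potassium. Slc12a2 rose between 48 and 96 h from -0.43, -0.30, -0.27, -0.32 and -0.25 to 0.051, 0.49 and 0.72 (log2 change 0.73, SE 0.13, adjusted p = 0.000628) and fell after puromycin to -0.25, -0.13 and -0.040 (log2 change -0.55, SE 0.13, adjusted p = 0.0108). Neither RA48 nor Puromycin overlapped RA96, and the end did not differ detectably from Control (-0.050 (adjusted p = 0.775)). That mean joins opposite differences in the array sets. In the first set Puromycin lay above Control (-0.040, -0.25 and -0.19 against -0.30, -0.36 and -0.44). In the second it lay below (-0.073, -0.14 and -0.11 against 0.25, 0.24 and 0.11). Slc12a1 fell by 96 h and ended 1.11 below Control (adjusted p = 2.64e-05), while Slc12a4 ended 0.37 above it (adjusted p = 0.0150). Slc8a1, which encodes the sodium and calcium exchanger of muscle, was called in no comparison, with -1.48 ± 0.29 in Control, -1.01 ± 0.47 in RA96 and -1.42 ± 0.57 at the end. The Na,K-ATPase maintains the sodium gradient that many of these carriers use. Of its 4 measured subunit genes 2 fell by 48 h, Atp1b1 by 1.12 and Atp1b2 by 0.87, and Fxyd6 rose by 0.55. By then 16.4% of all genes had fallen and 18.0% had risen.

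Of the 23 carriers of the Slc25 family, which are mitochondrial apart from the peroxisomal Slc25a17, 4 rose and 4 fell by 48 h (34.8%, beside 34.4% of all genes). At the end 6 stood above Control and 10 below (69.6%, beside 53.2%), with a median change of -0.22. Slc25a24 encodes a calcium-regulated carrier that exchanges ATP-Mg for phosphate. Its levels were -1.01, -0.59 and -0.27 in Control, 0.83, 0.76, 0.82, 0.38 and 0.60 in RA48, 1.02, 1.28 and 1.84 in RA96 and 1.33, 1.66 and 1.96 in Puromycin. Control, RA48 and RA96 did not overlap, and the first array set lay above the second in the treated groups. The rise was 1.28 by 48 h (SE 0.16, adjusted p = 2.55e-06) and 4.77-fold at the end (adjusted p = 7.39e-11), by 2.73 on the log2 scale in the first set and 1.78 in the second. Slc25a20, whose protein brings acylcarnitines to fatty acid oxidation, rose in 2 steps of 0.44 and 0.45 (adjusted p = 0.000793 and 0.00169). Its arrays lay at -0.94, -0.65 and -0.43 in Control, -0.23, -0.20, -0.16, -0.27 and -0.32 in RA48, 0.11, 0.18 and 0.40 in RA96 and 0.051, 0.25 and 0.43 in Puromycin, so that only the last 2 groups overlapped.

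Of the 6 above Control, the calls of Slc25a37, Slc25a17 and Slc25a12 were lost without any of 6, 3 and 6 single arrays (adjusted p up to 0.0899, 0.0711 and 0.100). Slc25a37, a mitochondrial iron importer gene, stood 0.76 above Control at the end (adjusted p = 0.0342) and Slc25a30 0.43 above it (adjusted p = 0.000231). Slc25a33, which carries pyrimidine nucleotides, had the largest fall at the end, from 2.02, 2.72 and 3.41 in Control to 0.98, 1.38 and 2.14 (log2 change -1.24, SE 0.28, adjusted p = 0.00105), with overlapping groups, and its call at 48 h was lost without any of 5 single arrays (adjusted p up to 0.0851). The mitochondrial glutamate carrier gene Slc25a22 fell between 48 and 96 h from -0.34, -0.58, -0.33, 0.18 and 0.10 to -1.23, -0.96 and -0.85 (log2 change -0.78, SE 0.13, adjusted p = 0.000177). Its Control arrays ran from -0.62 to -0.42, so this fall exceeds the difference from Control. A rise by 48 h was called too, and was lost without any of 13 single arrays (adjusted p up to 0.154). It lay mainly in the second array set, with 0.18 and 0.10 in RA48 against -0.51, -0.62 and -0.57 in Control. The first set gave -0.34, -0.58 and -0.33 against -0.55, -0.59 and -0.42, and the call was lost in that set alone. Ornithine carrier gene Slc25a15 and Slc25a39, whose protein carries glutathione, ended 0.64 and 0.75 below Control, and Slc25a45 0.47 below (adjusted p = 0.000958, and 0.223 with the random block). Slc25a5, which encodes an ADP/ATP exchanger, was called lower at 48 h (-0.76 (adjusted p = 0.0441)) and at the end (-0.68 (adjusted p = 0.0384)), and Slc25a13, an aspartate and glutamate carrier gene, at 96 h and at the end (-0.51 and -0.50). These 4 calls were lost without any of 10, 6, 7 and 8 single arrays (adjusted p up to 0.128, 0.100, 0.108 and 0.112). Among 6 measured genes of mitochondrial pores and import none rose and 2 fell by 48 h, beside 18.0% and 16.4% of all genes. Mpc1, a pyruvate carrier subunit gene outside the Slc naming, stood 0.89 above Control at 96 h (adjusted p = 1.64e-09) and Timm23 0.51 below (adjusted p = 0.00150).

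**Figure D4:**
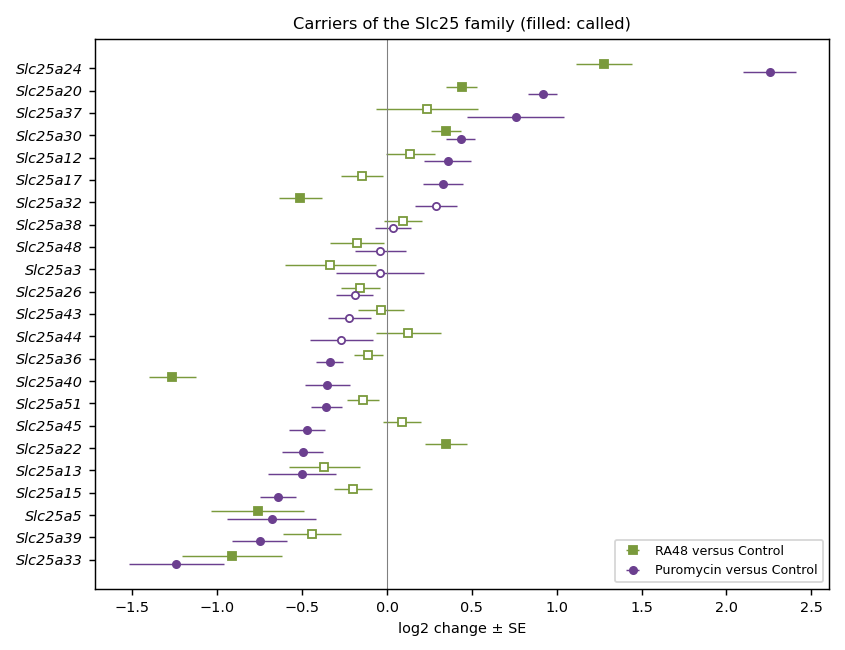
Log2 change ± SE (horizontal axis) of the 23 Slc25 carriers after 48 h of retinoic acid (squares) and at the end of puromycin (circles), both against Control and therefore not independent, filled where called. Slc25a24 (1.28 and 2.25) and Slc25a20 (0.44 and 0.92) lie highest, Slc25a33 (-0.91 and -1.24) lowest at the end, and Slc25a40 moves from -1.27 at 48 h to -0.35.

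Vitamin, folate and haem carriers gave 1 rise and 1 fall among 10 by 48 h and no rise and 3 falls at the end (median change -0.16). Slc23a2 encodes the vitamin C transporter of most tissues. It lay at 0.59, 0.72 and 0.98 in Control, -0.29, -0.41, -0.30, -0.37 and -0.36 in RA48, -0.35, -0.26 and -0.16 in RA96 and -0.72, -0.52 and -0.29 in Puromycin. Control stood clear of all treated arrays, and the fall was 2.15-fold by 48 h (log2 change -1.10, SE 0.085, adjusted p = 1.11e-09) and 2.41-fold at the end. The steps after 48 h were not called. The 3 Puromycin arrays of the first set and replicate 4 of the second (-0.43) nevertheless lay below every RA48 and RA96 array. Its epithelial relative Slc23a1 ended 0.60 below Control (adjusted p = 0.0124), and Slc46a1, a folate carrier gene, 0.43 below (adjusted p = 0.000595, and 0.109 with the random block). The genes of the reduced folate carrier Slc19a1 and the thiamine carrier Slc19a2 were called in no comparison.

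Fatty acid carrier gene Slc27a2 fell by 0.40 by 48 h (adjusted p = 0.00433), and Slc27a4 was not called. Slc10a4, a member of the bile acid carrier family, rose between 48 and 96 h (log2 change 0.56, SE 0.17, adjusted p = 0.0256), a call that was lost without RA48 replicate 5 (adjusted p = 0.0708), RA96 replicate 2 (0.0671) or RA96 replicate 5 (0.0532). Among 8 organic ion carriers, Slc47a1, which exports organic cations, fell from -0.39, -0.25 and -0.031 in Control to -1.42, -1.42, -1.59, -0.57 and -0.99 in RA48 without overlap (log2 change -0.97, SE 0.24, adjusted p = 0.00326) and ended 2.28-fold below Control. Slc13a4, a sulfate carrier gene, fell between 48 and 96 h (log2 change -1.27, SE 0.27, adjusted p = 0.00247), with overlapping groups because the RA96 arrays ran from -1.51 to 0.62. Slc22a5, the carnitine uptake gene, ended 0.41 above Control (adjusted p = 0.00728). Among 3 symbols that name associated or unassigned proteins, Slc66a2 rose from -1.33, -0.85 and -0.68 in Control to -0.16, 0.17 and 0.55 in Puromycin (log2 change 1.13, SE 0.15, adjusted p = 3.36e-06), while Slc4a1ap was not called in any comparison and Slc9a3r1, a scaffold protein gene, was called only at 96 h against Control (0.29 (adjusted p = 0.0296)), and not without any of 5 single arrays (adjusted p up to 0.0735).

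Some members were lowest or highest at 48 h. Both steps of such a pattern use the RA48 arrays, so a deviation of those arrays enters both, with opposite sign. Slc20a1, the second phosphate uptake gene, went from 1.44, 1.63 and 1.78 in Control down to 0.61, 0.90, 0.68, 0.85 and 0.95 in RA48 and back to 1.53, 1.73 and 2.02 in RA96 and 1.55, 1.69 and 1.78 in Puromycin. RA48 lay below every other array and Control, RA96 and Puromycin overlapped, with a fall of 0.82 (SE 0.094, adjusted p = 5.47e-07) and a rise of 0.97 (SE 0.094, adjusted p = 3.14e-07). Slc25a40, a relative of Slc25a39, fell from 2.22, 2.43 and 2.78 to 1.21, 1.00, 1.19, 0.96 and 1.52 (log2 change -1.27, SE 0.14, adjusted p = 2.89e-07) and rose by 0.47 by 96 h (adjusted p = 0.0214), a call that was lost without RA48 replicate 2 (adjusted p = 0.0652). Against Control it ended at -0.35 (adjusted p = 0.0338), a call lost without any of 6 single arrays, and the first array set alone gave 0.086 (adjusted p = 0.369). Slc25a32, which carries folate and flavin into mitochondria, fell by 0.51 by 48 h (adjusted p = 0.00408). Slc43a2, a carrier gene of large neutral amino acids, gave -0.20, -0.26, -0.28, 0.81 and 1.07 in RA48 between 0.54, 0.96 and 1.35 in Control and 1.05, 1.48 and 1.71 in RA96. The dip was in the 3 RA48 arrays of the first set, and the other 2 lay within the Control range, so that the step was -1.45 in the first set and 0.17 in the second.

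Slc22a23, a member of the organic ion family, showed the opposite course, at -1.11, -0.89 and -0.72 in Control, 0.95, 0.99, 0.93, 0.32 and 0.45 in RA48, -0.62, -0.33 and 0.10 in RA96 and -0.87, -0.62 and -0.40 in Puromycin. RA48 stood above every other array, 3.08-fold over Control (log2 change 1.62, SE 0.14, adjusted p = 1.08e-08), and the gene fell again by 96 h (log2 change -1.02, SE 0.14, adjusted p = 3.68e-05). Slc45a3, a sugar carrier gene, rose by 0.90 (adjusted p = 2.26e-05) and fell by 0.45 (adjusted p = 0.0238). Slc6a6 rose by 0.57 (adjusted p = 0.00104) and fell by 0.41 (adjusted p = 0.0231), and all 3 of its probes rose. The later falls of Slc45a3 and Slc6a6 were lost without any of 3 and 5 single arrays (adjusted p up to 0.0818 and 0.0709). Slc5a6, the biotin and pantothenate carrier gene, rose by 0.59 by 48 h (adjusted p = 0.00137) from 0.24, 0.37 and 0.78 to 1.22, 1.22, 1.01, 0.79 and 1.00, and its later difference of -0.36 was not called (adjusted p = 0.0544).

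**Figure D5:**
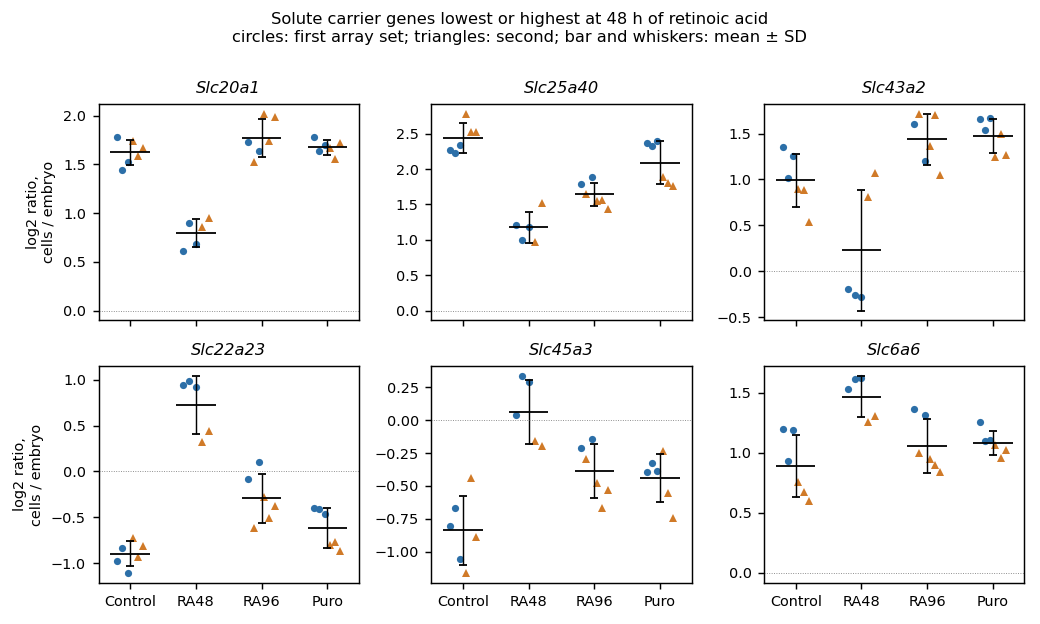
Log2 ratio of cells over the embryo pool (vertical axes) for 6 genes that were lowest (upper row) or highest (lower row) in RA48, a point per array, with circles for the first array set, triangles for the second, and a bar with whiskers for mean ± SD (n = 6, 5, 6 and 6). Slc20a1 drops from a group mean of 1.62 to 0.80 and Slc22a23 climbs from -0.90 to 0.73, while in Slc43a2 the low RA48 values are the 3 circles.

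Puromycin after 96 h of retinoic acid was followed by few called changes, in carriers (4.52%) as in all genes (7.82%). Slc39a6, Slc29a1, Slc35b2, Slc25a32 and Slc25a17 rose, and Slc12a2 and Slc35a4 fell. The largest of these changes was Slc39a6 at 0.60. Slc25a32 went from -0.013, 0.69 and 0.78 to 0.84, 1.03 and 1.21 without overlap (log2 change 0.45, SE 0.12, adjusted p = 0.0304), but 1 RA96 array at -0.01 set that group's lower end. Leaving it out (RA96 replicate 4) gave an adjusted p of 0.0638, and leaving out Puromycin replicate 2, 3 or 4 gave 0.0773, 0.0723 and 0.0661. Slc35b2 went from 0.40, 0.55 and 0.61 to 0.80, 0.87 and 1.01 without overlap (SE 0.075). Slc25a17, a peroxisomal carrier gene, rose by 0.44 and Slc35a4 fell by 0.31 (adjusted p = 0.0356), and each call was lost without any of 8 single arrays (adjusted p up to 0.0798 and 0.0774).

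Acta2 itself differed by 0.52 between these groups and was not called (adjusted p = 0.163), nor was any other of the 6 smooth muscle genes. Of the markers of other cell types, 1 of 8 neuronal genes (Dcx, -0.97), 3 of 5 epithelial genes (Cdh1, -0.94, Krt8, -0.51, and Cldn6, -0.38) and 1 of 7 cardiac and skeletal muscle genes (Nppa, -0.39) fell. The endoderm gene Sox17, 1 of 6, rose by 0.56, and no endothelial or blood gene was called. The part of those cell type markers in the 7 carrier calls was not tested. At this step 4.70% of all genes rose and 3.12% fell. The number of calls ran from 4, without Puromycin replicate 3, to 11, without RA96 replicate 3, and none remained with group and array set as a random block (5 at an unadjusted p under 0.05).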

How the data were processed

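Arrays were scanned on an Agilent scanner and read with Agilent Feature Extraction A.6.1.1, per the labels' protocols. The values used are the authors' deposited log10 ratios (Cy5 cells over Cy3 embryo pool), 1 column per array. Normalization before deposit, and the log base, centring and direction of the values, are not given in the sources used here. Values were divided by 0.301, the log10 of 2. Of 21446 rows, 1166 (5.44%) that look like control spots were left out. Probes with 1 gene symbol in the platform annotation (11100 of 20280) were averaged per gene, and the other probes were kept as single rows for the fit.

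The 4 group means were fitted over all 23 arrays with limma 3.58.1 in R 4.3.3, on 17863 rows, with Benjamini-Hochberg adjustment over all rows for each comparison; 5 comparisons and an F test were made. The number of arrays limits the precision. Named by rule were, for each comparison, up to 10 called members with the largest rise and 10 with the largest fall among those whose arrays do not overlap, up to 3 members with the highest F per substrate group, and well-known carriers. For 7 of the well-known carriers no probe carried their symbol alone. Among these, Slc7a5 and Slc11a2 lay on probes shared with a second gene, which were left out. The lack of overlap in the first kind thus follows from the rule. Other members were named after their values were seen, to complete the substrate groups. Members and lists were chosen with earlier results of these data known. Alternatives tried were median centring, quantile normalization, other blocks, array sets, weights and filters, and leaving out each array.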

Additional observations from a re-analysis of the deposited data

Results flagged for a closer look

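For 8 members, 1 array lay far from the others of its group by Dixon's test at the 95% level, out of 236 sets of arrays tested (3.39%). The test's nominal rate of about 1 in 20 assumes a single population per group. Each group here mixed 2 array sets with different offsets, so the share cannot be judged against that rate. RA48 replicate 5 was that array for 4 of them. It was lowest for Slc10a4 at -0.352 (nearest other array 0.2787) and for Slc46a1 at -0.1528 (nearest 0.1029), and highest for Slc18a1 at 0.8725 (nearest 0.3097) and for Slc30a4 at 0.5212 (nearest 0.09553). Slc25a13 was highest in Puromycin replicate 2 at 1.549 (nearest 0.4789). Slc25a22 was lowest in RA96 replicate 1 at -1.225 (nearest -0.9803), and Slc25a32 in RA96 replicate 4 at -0.01291 (nearest 0.5676). Slc50a1 was lowest in Control replicate 3 at -1.018 (nearest -0.5967).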

How the results depend on the processing

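Of 153 called changes of the members named by rule, 73 kept their direction and call in all other settings, and 132 did so when each array was left out. The random block of group and array set ended 79 of them, the second array set alone 26, an adjusted p under 0.01 27, and the first set alone 15, where 1 turned, Slc25a40 in Puromycin against Control (0.0860). Array weights ended 6, comparing 2 groups alone 9, quantile normalization 4 and median centring 2; trended variance, keeping control-like rows and reading the values as log2 ended none.

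With the array set as a block 74, 54 and 22 members were called in the 3 successive steps. The random block called 16, 7 and 0 (5 at an unadjusted p under 0.05), 30 and 34 at 96 h and at the end against Control, and 30 in the F test. Array weights called 72, 90 and 26. The first set alone called 61 and 16 in the last 2 steps, and the second set 13 in the last. An adjusted p under 0.01 left 19 and 3, and single probes gave 11 for the puromycin step. Leaving out 1 array gave 41 to 47, 22 to 41 and 4 to 11 calls in the 3 steps, the last range set by Puromycin replicate 3 and RA96 replicate 3, and 83 to 92 in the F test. Replicate numbers did not pair the samples: same-numbered arrays correlated at -0.46 to 0.67 over 33 pairs, and 4 of 23 arrays correlated best with their own number. A replicate block gave 61, 42 and 17 calls in the 3 steps and ended none of the 153. These ratios carry no detection or background values, so weakly expressed members cannot be told from strong ones here.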
